A study of Mus musculus with 4 samples.

Results

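The comparison described here sets the liver of Med1 floxed mice 5 days after an adenovirus carrying Med1 (Ad-Med1) against the liver 5 days after an adenovirus carrying LacZ (Ad-LacZ), with 1 array on each side. Its members were chosen by detection: of the 45281 probes on the array, 16080 (35.5%) had a detection p-value under 0.01 on at least 1 of these arrays. Of them, 13276 were detected on both arrays, 2018 on the Ad-Med1 array alone and 786 on the Ad-LacZ array alone. The 56 probes just inside that threshold had median log2 signals of 6.09 in Ad-Med1 and 6.26 in Ad-LacZ, and the 3162 probes just outside it, with a detection p-value of up to 0.05, had medians of 5.70 and 5.79. A single gene symbol was attached to 13925 members, which cover 9288 genes. The 9261 of 19057 genes on the array whose brightest probe was itself a member are described by that probe. With 1 array per group there is no spread between replicates, so every difference below is a description of these arrays and carries no p-value.

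All mice, those given the control virus included, were 5.5 weeks old, of the C57BL6/J background and homozygous for the floxed Med1 allele (Med1fl/fl). The viruses were given through a vein; Ad-His-Med1 expressed Med1 and Ad-LacZ expressed the bacterial beta-galactosidase gene. Total RNA of whole liver was hybridised. The labels name no Cre and no sex, and neither the promoter driving each transgene nor the number of animals behind an array is stated in them. Arrays of the same viruses at day 3 serve below only as a further value for each gene.

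Med1 encodes the Mediator subunit that nuclear receptors contact through its LxxLL motifs. Mediator passes the signal of DNA-bound activators to RNA polymerase II. In liver, the receptors that use Med1 include PPARalpha, CAR and HNF4A, which govern fat oxidation, drug metabolism and the hepatocyte programme, and adenovirus given into the blood is taken up mostly by the liver.

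The first check was the transgene. Probe ILMN_2658227 of Med1 read 12.22 on the log2 scale in Ad-Med1 and 6.38 in Ad-LacZ, where it was not detected, a gap of at least 56.2-fold. ILMN_3106388 read 9.66 in Ad-Med1 and 7.48 in Ad-LacZ (4.56-fold higher). ILMN_1220563 read 9.45 and 9.25, and both other Med1 probes were detected on no array. The Ad-Med1 array thus carried more Med1 signal at 2 of the 3 probes that gave any. Which of these probes lie in the sequence carried by the virus was not analysed here.

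The arrays differed in other respects that touch every result. Before normalization the mean intensity was 967.7 in Ad-Med1 and 475.4 in Ad-LacZ, and 33.8% and 31.1% of all probes were detected. Y-linked Eif2s3y (ILMN_1241001) read 10.54 in Ad-Med1 and was not detected at 4.65 in Ad-LacZ. Kdm5d and Uty, also Y-linked, were likewise detected in Ad-Med1 and not in Ad-LacZ. Of the 4 probes of Xist, the RNA that silences an X chromosome in females, ILMN_1224091 and ILMN_2475156 read 7.52 and 7.61 in Ad-Med1 against 12.15 and 12.28 in Ad-LacZ, whereas ILMN_3022688 read 9.51 in Ad-Med1 and 8.15 in Ad-LacZ and ILMN_3123341 read 8.64 and 8.77. Of the day 5 arrays, the Ad-Med1 array alone thus gave Y-linked signal, beside Xist signal on both. Sex and virus cannot be told apart at day 5. The day 3 arrays stood the other way round, with Eif2s3y at 9.52 in Ad-LacZ and not detected at 4.64 in Ad-Med1. All 4 Xist probes were detected in Ad-Med1 at day 3 and none in Ad-LacZ. Uty was detected on both day 3 arrays and Kdm5d on neither. Comparisons with the day 3 arrays below carry this difference too, and its part was not tested. Hepatocyte markers matched the label of the tissue: 10 of 12 were measured, with a median log2 signal of 14.12 in Ad-Med1 and 14.34 in Ad-LacZ, although the Alb probe (ILMN_2651160) read only 6.31 and 7.59.

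**Figure D1:**
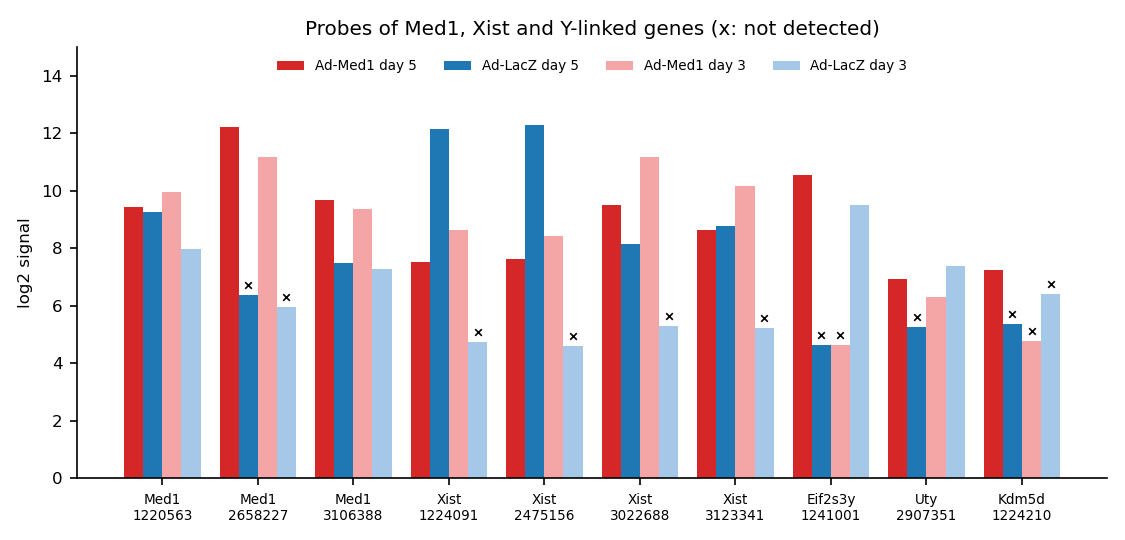
Log2 signal of each probe of Med1, Xist and 3 Y-linked genes that was detected on at least 1 array, with 1 bar for each of the 4 arrays and a cross over a bar that was not detected. Med1 probe ILMN_2658227 stands at 12.22 in Ad-Med1 and 6.38 in Ad-LacZ at day 5, and Eif2s3y at 10.54 and 4.65.

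At day 5, 943 of 9261 genes (10.2%) were higher in Ad-Med1 by 2-fold or more and 711 (7.68%) were lower by as much, which together is 17.9%. Each count of higher or lower genes in a list below is to be read against these shares. The median difference over all genes was 0.07 on the log2 scale. Of the higher genes, 404 were not detected in Ad-LacZ, and of the lower genes, 171 were not detected in Ad-Med1, so those folds rest on a background signal. Among the 7983 genes detected on both arrays the counts were 539 higher and 540 lower. At least 4-fold differences numbered 142 higher and 89 lower. Higher genes made up 57.0% of those 2-fold apart, but 95.0% with the arrays scaled to a common median, 98.4% in the series values less their median, and 41.0% with scaling to the median of the detected genes. When the day 3 Ad-LacZ array replaced that of day 5, 1668 of 9218 genes (18.1%) were higher and 1082 (11.7%) lower. For 2636 genes a second probe was detected on both arrays, and it differed from the first by a median of 0.37 on the log2 scale. Where the first probe of such a gene was at least 2-fold apart (323 genes), the second had the same direction in 279, in 161 of them also by 2-fold, and the opposite direction in 44, in 4 of them by 2-fold. Of the members without a gene symbol, 2155 in all, 252 were higher and 255 lower by 2-fold or more.

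**Figure D2:**
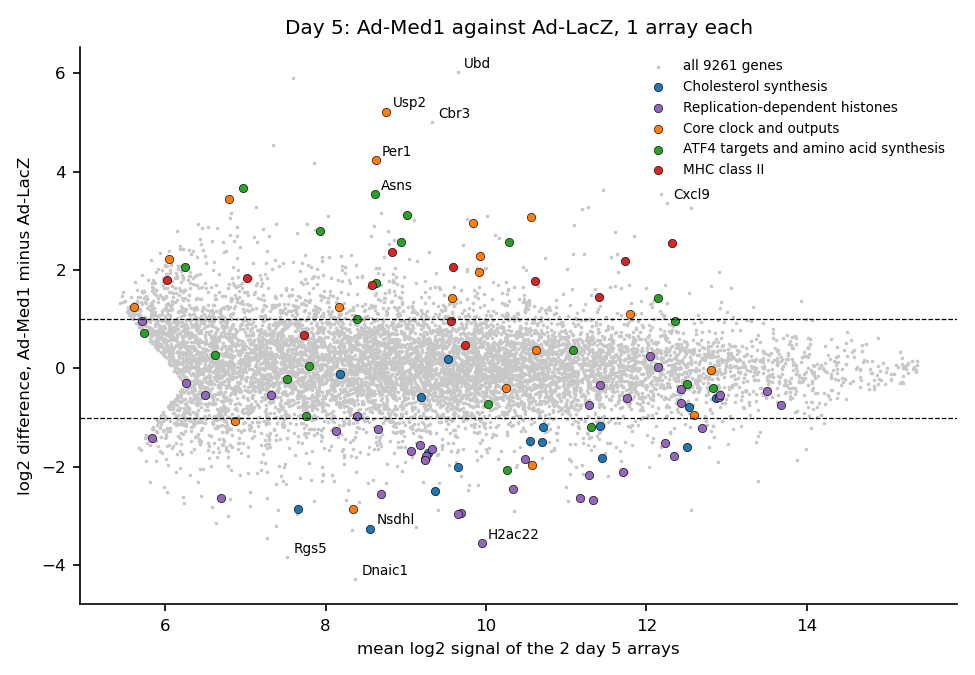
Difference between the day 5 arrays (log2, Ad-Med1 minus Ad-LacZ) against their mean log2 signal for the 9261 genes, with 5 gene lists in colour and dashed lines at 2-fold. Genes of cholesterol synthesis and the histone genes lie mostly below 0, whereas MHC class II genes lie above it.

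The 10 genes with the largest excess in Ad-Med1 among those detected on both arrays were Ubd, Cbr3, Per1, Cxcl1, Saa3, Asns, Cxcl9, Gbp2b, Saa1 and Gbp2, which were 9.50-fold to 64.7-fold higher. Gbp2b, a guanylate-binding GTPase of the interferon response, read 12.91 in Ad-Med1 and 9.63 in Ad-LacZ (9.70-fold higher). Among genes detected in Ad-Med1 alone, Usp2, a deubiquitinase with a daily rhythm, was at least 31.1-fold higher by its brightest probe, but its 2 further probes differed by 2.03 and 1.66 on the log2 scale. In the same group, Eif2s3y, Plin4, Gm4841 and Wfdc12 were at least 7.07-fold to 17.5-fold higher. They include genes of inflammation, of the daily clock and of amino acid supply.

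In the other direction, the 10 genes detected on both arrays with the largest deficit in Ad-Med1 were Dnaic1, H2ac22, Dct, Nsdhl, Eif4ebp2, H2ac15, Loxl4, H2ac12, Rnf125 and Pcyt1a, which were 7.37-fold to 19.3-fold lower. A further probe of Loxl4 differed by only -0.87. Eif4ebp2, a repressor of cap-dependent translation, read 7.51 in Ad-Med1 and 10.73 in Ad-LacZ (9.28-fold lower). Pcyt1a, the rate-limiting enzyme of phosphatidylcholine synthesis, read 7.96 in Ad-Med1 and 10.84 in Ad-LacZ (7.37-fold lower). Both genes were also low at day 3, Eif4ebp2 with 7.75 in Ad-Med1 and 11.08 in Ad-LacZ and Pcyt1a with 8.36 and 10.05. Of the genes detected in Ad-LacZ alone, Rgs5 was at least 10.2-fold lower, and Hectd2os, 2900060B14Rik, Irs2 and Pank3 at least 5.65-fold to 7.47-fold lower. Irs2 is the insulin receptor substrate of hepatocytes and Pank3 starts the synthesis of coenzyme A.

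**Figure D3:**
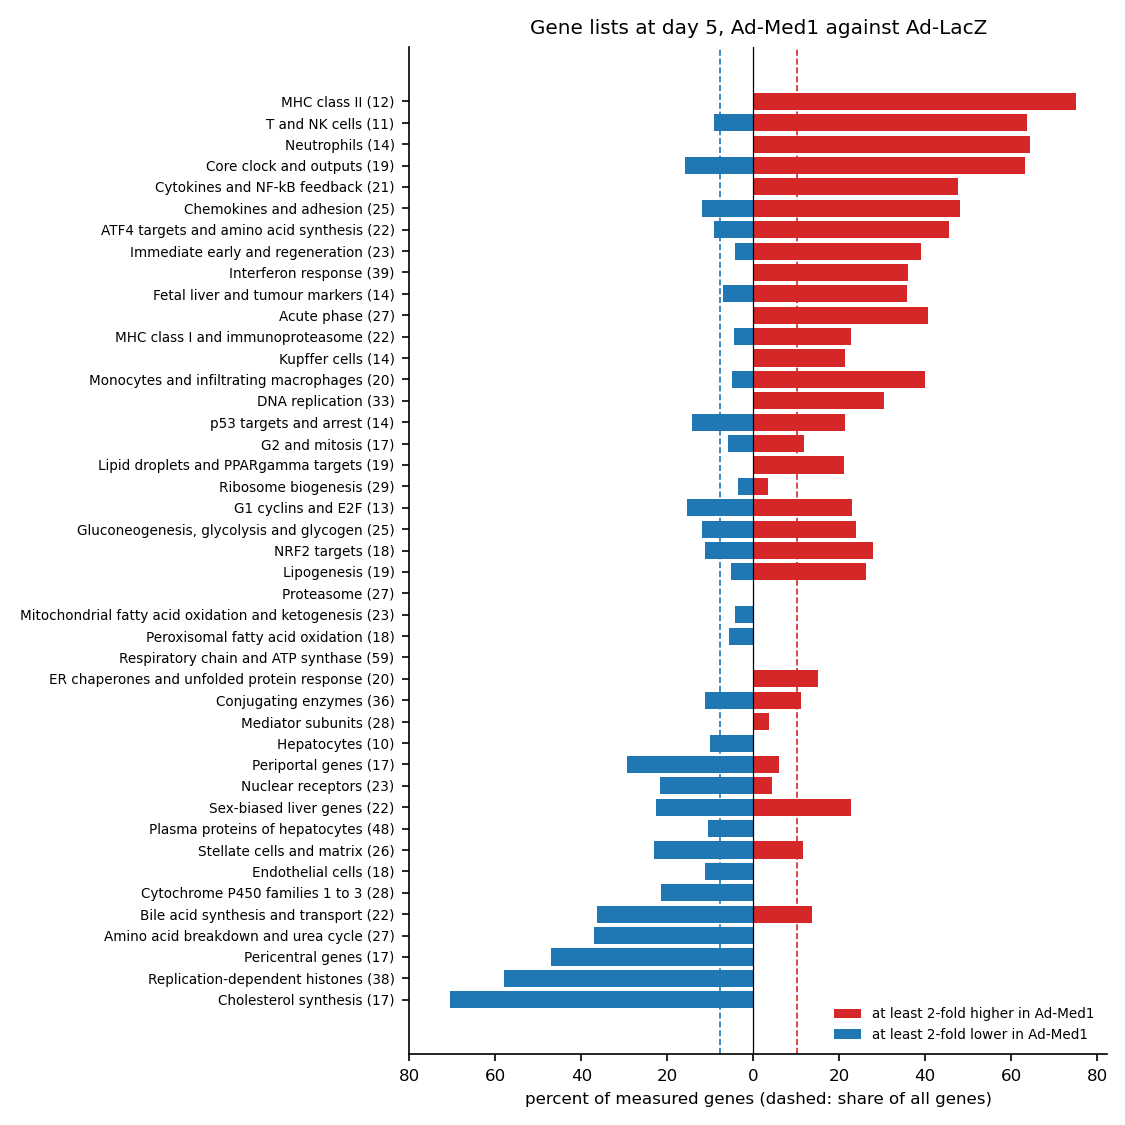
Share of the measured genes of each list (number in brackets, lists of at least 10) that were at least 2-fold higher (right, red) or lower (left, blue) in Ad-Med1 at day 5, ordered by the list's median difference, with dashed lines at the shares over all genes (10.2% and 7.68%). MHC class II stands at the upper end with 9 of 12 genes higher and cholesterol synthesis at the lower end with 12 of 17 genes lower.

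Cholesterol synthesis was the list with the lowest median among the 37 pathway lists. Cells make cholesterol from acetyl-CoA through mevalonate, isoprenoids and lanosterol, and the enzymes are induced together by SREBP2 when sterols run low. Of 17 measured genes, 12 were at least 2-fold lower in Ad-Med1 and none was higher, against 7.68% and 10.2% of all genes, and the median difference was -1.48, against 0.07 over all genes. All 17 were detected on both arrays. In 14 of the 17, the Ad-Med1 day 5 array held the lowest of the 4 values, against 23.4% of all genes.

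Along the pathway, Mvd and Pmvk, which act on phosphorylated mevalonate, came first. Mvd read 6.22 in Ad-Med1 and 9.09 in Ad-LacZ (7.26-fold lower), and Pmvk read 8.33 and 10.16 (3.56-fold lower). Lss, which closes the sterol rings to give lanosterol, read 8.66 in Ad-Med1 and 10.65 in Ad-LacZ (3.99-fold lower). The later enzymes trim lanosterol to cholesterol. Tm7sf2, a sterol reductase, read 8.12 in Ad-Med1 and 10.61 in Ad-LacZ (5.59-fold lower). Msmo1, which oxidises the methyl groups to be removed, read 10.53 and 12.36 (3.54-fold lower). Nsdhl, the dehydrogenase of that removal, read 6.93 in Ad-Med1 and 10.18 in Ad-LacZ (9.53-fold lower), and its 3 further probes differed by -2.61, -3.37 and -2.26. Srebf2, the gene of SREBP2 itself, read 8.12 and 8.23, and Dhcr7, which makes the last step, 9.62 and 9.42; both were chosen after their values were seen, and neither was 2-fold apart.

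The deficit was present at day 3 in part, where the median of the 17 genes was -0.68. Nsdhl read 8.35 in Ad-Med1 and 10.64 in Ad-LacZ at day 3, and Mvd 7.59 and 8.83. Set against the Ad-LacZ array of day 3 in place of day 5, the Ad-Med1 day 5 array gave a median of -1.47. Both control arrays therefore stood above the Ad-Med1 day 5 array in most of this list.

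The 250 bases before the start of these genes were read from RefSeq (GRCm38.p6) for the 14 measured genes with an entry, since the list moved together. The letters CCAAT, the box bound by NF-Y, were found on either strand in all 14, against 37.5% of 27025 genes. A gene with several listed starts counted if 1 of them held the letters. The 9 genes at least 2-fold lower that have an entry are among the 14. A sterol response element written as TCACNCCAC was found in none of the 14 and in 1.22% of all genes. The windows of Nsdhl, chrX:72918271-72918520 (plus strand), Mvd, chr8:122443423-122443672 (minus strand), and Lss, chr10:76531355-76531604 (plus strand), follow from 5′ to 3′ because these genes were among the lowest of the list and hold the box near the start; capitals mark it (CCAAT, or ATTGG where it lies on the opposite strand). In Nsdhl a box began 109 and 20 bases before the start, in Mvd 60 and 27, and in Lss 62. These are matches of letters, and binding was not measured.
Nsdhl: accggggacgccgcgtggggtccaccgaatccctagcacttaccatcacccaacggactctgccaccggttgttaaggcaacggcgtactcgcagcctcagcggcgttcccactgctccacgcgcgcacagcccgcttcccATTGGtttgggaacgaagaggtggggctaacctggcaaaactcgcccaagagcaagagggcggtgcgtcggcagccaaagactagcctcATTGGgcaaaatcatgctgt
Mvd: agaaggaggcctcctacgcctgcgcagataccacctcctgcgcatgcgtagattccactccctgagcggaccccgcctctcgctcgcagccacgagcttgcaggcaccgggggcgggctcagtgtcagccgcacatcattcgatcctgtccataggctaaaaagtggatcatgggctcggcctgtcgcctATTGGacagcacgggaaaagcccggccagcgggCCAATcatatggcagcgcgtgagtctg
Lss: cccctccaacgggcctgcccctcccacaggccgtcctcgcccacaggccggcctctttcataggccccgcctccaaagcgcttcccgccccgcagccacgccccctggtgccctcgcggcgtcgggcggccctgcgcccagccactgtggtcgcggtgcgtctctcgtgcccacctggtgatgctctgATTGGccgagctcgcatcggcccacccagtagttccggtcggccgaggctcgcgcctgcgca

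**Figure D4:**
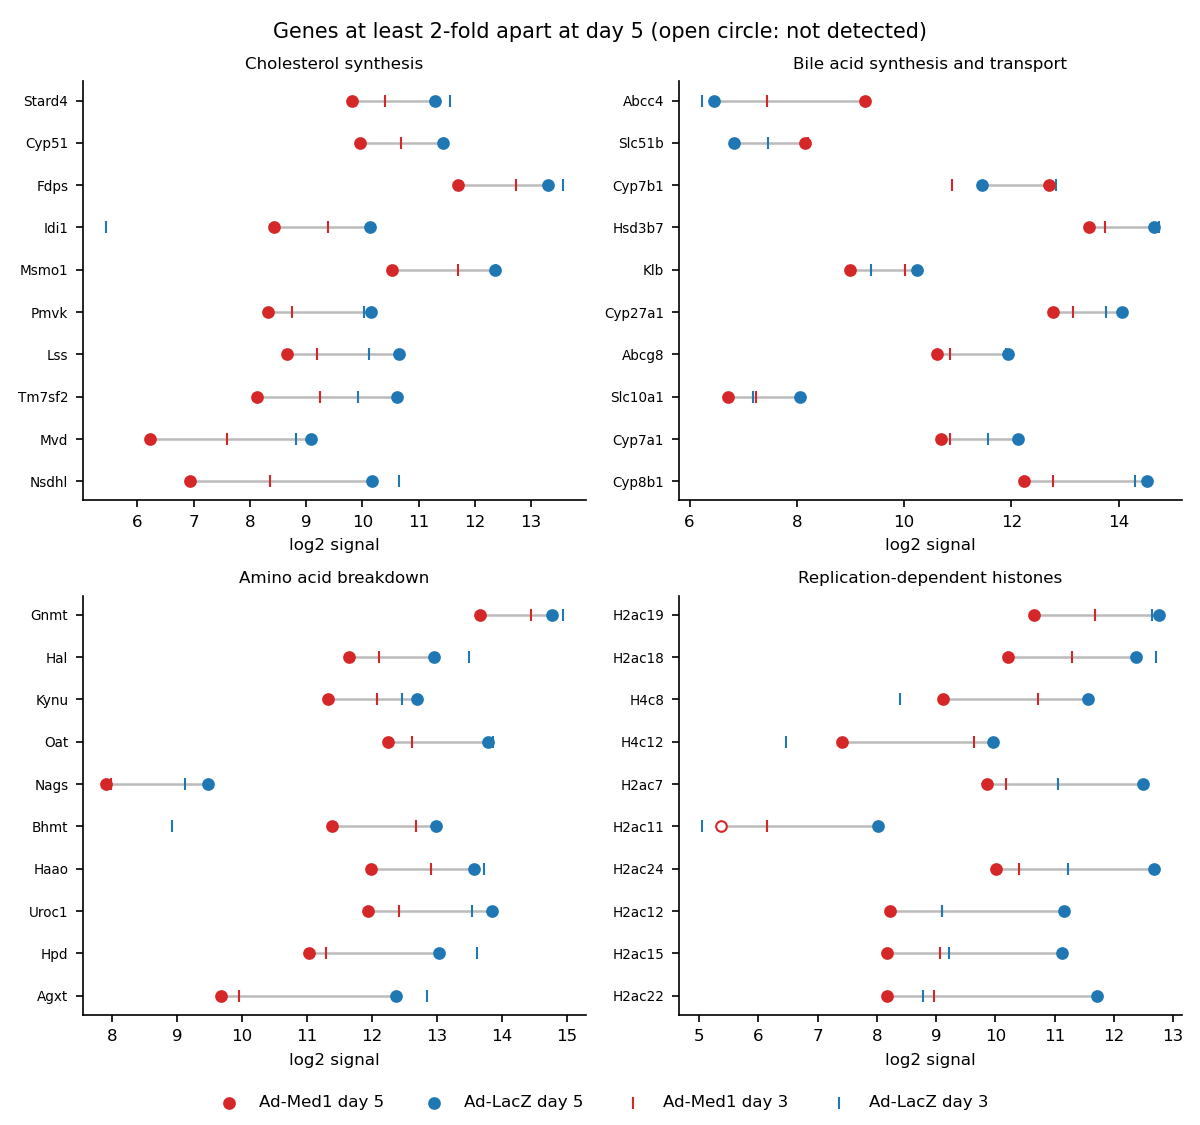
Log2 signal of the genes at least 2-fold apart at day 5 (up to 10 in each list), with filled circles for the day 5 arrays (red Ad-Med1, blue Ad-LacZ, open where not detected) and ticks for the day 3 arrays, detected or not. In cholesterol synthesis all 10 red circles shown lie left of the blue ones, as for Nsdhl with 6.93 in Ad-Med1 and 10.18 in Ad-LacZ.

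Bile acid synthesis and transport was divided. Bile acids are made from cholesterol in hepatocytes, taken up from portal blood and exported into bile. Of 22 measured genes, 8 were at least 2-fold lower and 3 higher in Ad-Med1, with a median of -0.65, which turned to 0.05 in the series values, where the median of all genes stood at 0.84. Cyp8b1, the hydroxylase that directs synthesis to cholic acid, read 12.24 in Ad-Med1 and 14.54 in Ad-LacZ (4.91-fold lower). Cyp7a1, the rate-limiting enzyme, read 10.69 and 12.12 (2.69-fold lower). Slc10a1, the uptake carrier of the sinusoidal membrane, read 6.71 in Ad-Med1 and 8.06 in Ad-LacZ (2.54-fold lower). Abcg8, which pairs with Abcg5 to export cholesterol into bile, read 10.62 and 11.94 (2.50-fold lower).

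The higher genes include 2 that carry bile acids back into blood. Abcc4, an efflux pump of the sinusoidal side, read 9.27 in Ad-Med1 and 6.46 in Ad-LacZ (7.02-fold higher). Slc51b, a subunit of the organic solute transporter, read 8.14 and 6.83 (2.49-fold higher). Cyp7b1, of the alternative synthesis pathway and also male-biased in mouse liver, was the third, with 12.69 in Ad-Med1 and 11.45 in Ad-LacZ (2.37-fold higher, chosen after its value was seen). At day 3 it read 10.89 in Ad-Med1 and 12.83 in Ad-LacZ, the opposite order. Of the genes named here, Cyp8b1, Cyp7a1, Slc10a1 and Abcg8 were thus lower, and Abcc4, Slc51b and Cyp7b1 higher, on the Ad-Med1 array of day 5.

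Genes of amino acid breakdown were lower as well. Hepatocytes degrade most amino acids and pass the nitrogen to the urea cycle. Of 27 measured genes, 10 were at least 2-fold lower and none higher, against 7.68% and 10.2% of all genes. The median was -0.70, and 25 of the 27 differences were below 0, against 4268 of 9261 over all genes. Agxt, which clears glyoxylate, read 9.68 in Ad-Med1 and 12.37 in Ad-LacZ (6.43-fold lower). Hpd, of tyrosine breakdown, read 11.04 and 13.03 (3.98-fold lower). Uroc1, of histidine breakdown, read 11.94 in Ad-Med1 and 13.85 in Ad-LacZ (3.74-fold lower). Nags makes the activator of the first urea cycle enzyme and read 7.90 and 9.48 (2.99-fold lower). The cycle enzymes themselves differed little: Cps1 read 14.22 in Ad-Med1 and 14.29 in Ad-LacZ, Ass1 13.81 and 13.84 and Arg1 14.34 and 14.53 (chosen after their values were seen), while a second Arg1 probe differed by 0.35.

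Agxt and Hpd showed the same order at day 3, Agxt with 9.96 in Ad-Med1 and 12.85 in Ad-LacZ and Hpd with 11.30 and 13.62. The list's median was -0.62 at day 3 and -0.87 between Ad-Med1 at day 5 and Ad-LacZ at day 3. Bhmt, which returns the methyl group of betaine to homocysteine, is an exception in that setting. It read 11.39 in Ad-Med1 and 12.98 in Ad-LacZ at day 5 (3.02-fold lower), but 12.68 in Ad-Med1 and 8.92 in Ad-LacZ at day 3.

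Zonation genes, which hepatocytes express according to their place between portal and central veins, were unequal. Of 17 pericentral genes, 8 were at least 2-fold lower in Ad-Med1 and none higher (median -0.99), and of 17 periportal genes 5 were lower and 1 higher (median -0.18). Lhpp, a phosphatase, read 7.90 in Ad-Med1 and 9.89 in Ad-LacZ (3.96-fold lower). Tbx3, a transcription factor downstream of Wnt signalling, read 8.68 and 10.22 (2.92-fold lower), and its 3 further probes differed by -2.30 to -1.16. Oat, which degrades ornithine, read 12.24 in Ad-Med1 and 13.79 in Ad-LacZ (2.91-fold lower). Glul and Axin2, further targets of Wnt chosen after their values were seen, read 8.02 and 6.17 in Ad-Med1 against 9.01 and 7.14 in Ad-LacZ, both just short of 2-fold. The periportal gene in the opposite direction was Pck1, the entry enzyme of gluconeogenesis, with 11.01 in Ad-Med1 and 9.50 in Ad-LacZ (2.85-fold higher).

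Among cytochrome P450 enzymes of families 1 to 3, which oxidise drugs and steroids, 6 of 28 were at least 2-fold lower and none higher, with a median of -0.55. Over all genes, 7.68% were lower and 10.2% higher. Members of the 2c subfamily led. Cyp2c54 read 8.11 in Ad-Med1 and 10.65 in Ad-LacZ (5.83-fold lower), Cyp2c50 read 12.95 and 14.81 (3.63-fold lower), and Cyp2c37 read 13.17 and 14.81 (3.13-fold lower). Cyp2b13 and Cyp2c39 were lower at day 5 too. On the Ad-LacZ day 3 array neither was detected (4.77 and 5.01), so that their direction depends on the control. That array gave Eif2s3y signal and no Xist signal, the reverse of the Ad-LacZ array of day 5. Cyp2b13 is female-biased in mouse liver. Of 22 sex-biased liver genes, 5 were at least 2-fold higher and 5 lower. A1bg, which is female-biased, read 11.11 in Ad-Med1 and 13.99 in Ad-LacZ (7.36-fold lower), and Cyp4a12b, of a male-biased subfamily, read 10.13 and 8.48 (3.13-fold higher). Beside these stand the Xist and Y-linked values given above, and their part in the results was not tested.

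The replication-dependent histone genes, which supply chromatin during DNA synthesis, were lower in 22 of 38 and higher in none, with a median of -1.34. The families differed. Of 12 H2A genes of the H2ac group, 11 were at least 2-fold lower (median -2.39), and of 9 H4 genes 7 (median -1.77), against 3 of 8 H3 genes (median -0.65) and 1 of 8 H2B genes (median -0.59). H2ac24 read 10.01 in Ad-Med1 and 12.67 in Ad-LacZ (6.33-fold lower), H2ac7 read 9.87 and 12.49 (6.16-fold lower), and H4c12 read 7.42 and 9.96 (5.85-fold lower). In 10 of the 12 H2A genes the Ad-LacZ day 5 array was the highest of the 4 arrays, against 17.7% of all genes. In 10 the Ad-Med1 day 5 array was the lowest, against 23.4% of all genes. The list's median was 1.48 at day 3 and 0.04 against the day 3 control, so its direction turned with the day. These genes are near-identical copies of each other, and how far their probes cross-hybridise was not tested.

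Genes of the replication machinery were not lower with the histones. Of 33 DNA replication genes, 10 were at least 2-fold higher in Ad-Med1 and none lower (median 0.58), of which 2 were not detected in Ad-LacZ. Mcm6, a subunit of the replicative helicase, read 10.91 in Ad-Med1 and 8.87 in Ad-LacZ (4.11-fold higher). Rrm1 and Rrm2, the subunits of ribonucleotide reductase, read 10.34 and 8.99 in Ad-Med1 against 8.40 and 7.16 in Ad-LacZ. Ccne2, a cyclin of the entry into S phase, was at least 2.86-fold higher, whereas Ccnd2 read 6.57 in Ad-Med1 and 8.79 in Ad-LacZ (4.67-fold lower). In 28 of the 33 replication genes the highest of the 4 arrays was Ad-Med1 at day 3, against 23.7% of all genes.

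Targets of ATF4, the transcription factor that answers amino acid shortage and endoplasmic reticulum stress, were more often higher than lower. Of 22 measured genes, 10 were at least 2-fold higher, 2 lower and 10 neither, with a median of 0.84. Asns, which makes asparagine, read 10.39 in Ad-Med1 and 6.85 in Ad-LacZ (11.6-fold higher). Psat1, of serine synthesis, read 10.58 and 7.46 (8.74-fold higher). Nupr1, a stress-induced chromatin protein, read 9.33 in Ad-Med1 and 6.53 in Ad-LacZ (6.98-fold higher). Chac1, which degrades glutathione, was 5.97-fold higher, and Mthfd2, of the mitochondrial folate cycle, read 10.22 and 7.65 (5.92-fold higher). Aldh18a1, of proline synthesis, was not detected in Ad-LacZ and was at least 5.23-fold higher.

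The 2 lower genes act together in the conversion of homocysteine to cysteine. Cth read 9.23 in Ad-Med1 and 11.30 in Ad-LacZ (4.18-fold lower) and Cbs 10.72 and 11.90 (2.26-fold lower), both chosen after their values were seen. The RNA of Atf4 itself read 12.36 in Ad-Med1 and 12.66 in Ad-LacZ, and Ddit3, which encodes CHOP, 7.27 and 8.24, likewise chosen afterwards. Of 20 genes of chaperones and the unfolded protein response, 3 were at least 2-fold higher, Creld2, Herpud1 and Hspa5 (2.07-fold to 2.78-fold), and none lower, with a median of -0.03. The list of ATF4 targets had a median of -0.18 at day 3 and 0.79 against the day 3 control.

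The composite element read by CHOP and ATF4, written as TGATGNAA, was searched on either strand of the 250 bases before the start. It was found in 4 of the 20 measured genes with an entry, all 4 of them among the 9 higher ones, and in 3.91% of all genes. The windows of Asns, chr6:7693210-7693459 (minus strand), and Nupr1, chr7:126625471-126625720 (minus strand), both in GRCm38.p6 from RefSeq, are given because both genes were among the highest of the list; capitals mark the match. It began 23 bases before the start in Asns and 110 in Nupr1, there on the opposite strand.
Asns: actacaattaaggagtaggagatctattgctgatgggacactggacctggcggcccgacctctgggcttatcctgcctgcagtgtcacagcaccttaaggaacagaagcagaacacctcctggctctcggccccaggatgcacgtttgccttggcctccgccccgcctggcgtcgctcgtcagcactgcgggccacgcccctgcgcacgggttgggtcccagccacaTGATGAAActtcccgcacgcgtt
Nupr1: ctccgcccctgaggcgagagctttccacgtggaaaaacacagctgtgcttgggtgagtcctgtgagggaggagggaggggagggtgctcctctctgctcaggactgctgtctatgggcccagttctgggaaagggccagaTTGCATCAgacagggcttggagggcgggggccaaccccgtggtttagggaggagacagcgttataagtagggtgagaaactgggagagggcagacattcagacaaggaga

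Clock genes and their outputs differed widely. Hepatocytes keep a daily rhythm in which ARNTL and CLOCK drive Per, Cry and Rev-erb genes that in turn repress them. Of 19 measured genes, 12 were at least 2-fold higher in Ad-Med1 and 3 lower, with a median of 1.25, and 4 of the higher ones were not detected in Ad-LacZ. Per1 read 10.74 in Ad-Med1 and 6.51 in Ad-LacZ (18.7-fold higher), Per2 read 11.31 and 8.36 (7.76-fold higher), and Nr1d2 read 11.06 and 8.79 (4.84-fold higher). Dbp, an output factor of the clock, read 12.10 in Ad-Med1 and 9.02 in Ad-LacZ (8.44-fold higher). Arntl, whose peak is opposite to theirs, read 6.92 in Ad-Med1 and 9.77 in Ad-LacZ (7.21-fold lower). Per genes and outputs were high on the array where Arntl was low.

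In part of this list the control arrays of the 2 days were unlike each other. Dbp read 12.70 in Ad-Med1 and 11.91 in Ad-LacZ at day 3, Per1 10.32 and 9.26, and Arntl 6.47 and 7.11. For these 3 genes the outlying value was that of Ad-LacZ at day 5. The other lower genes were Avpr1a, a vasopressin receptor, with 9.60 in Ad-Med1 and 11.55 in Ad-LacZ, and Nr1d1, a Rev-erb repressor, with 6.34 and 7.39 (both chosen after their values were seen). Nr1d1 thus ran against its relative Nr1d2. The labels do not give the hour at which the livers were taken, so hour and virus cannot be told apart.

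The E-box bound by ARNTL and CLOCK, written as CACGTG and its own reverse complement, was found before the start of 5 of 16 clock genes with an entry, 4 of them among the 9 higher ones, against 6.86% of all genes. Per1 has 2 listed starts, and the window of the one with a match, chr11:69098699-69098948 (plus strand) in GRCm38.p6 from RefSeq, is given since Per1 had the largest difference of the list among genes detected on both arrays. The element, in capitals, began 166 bases before that start.
Per1: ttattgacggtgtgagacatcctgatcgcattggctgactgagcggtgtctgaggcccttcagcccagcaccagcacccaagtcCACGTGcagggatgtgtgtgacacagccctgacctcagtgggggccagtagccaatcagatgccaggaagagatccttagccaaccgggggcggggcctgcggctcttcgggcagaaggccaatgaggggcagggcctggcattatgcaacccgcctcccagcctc

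**Figure D5:**
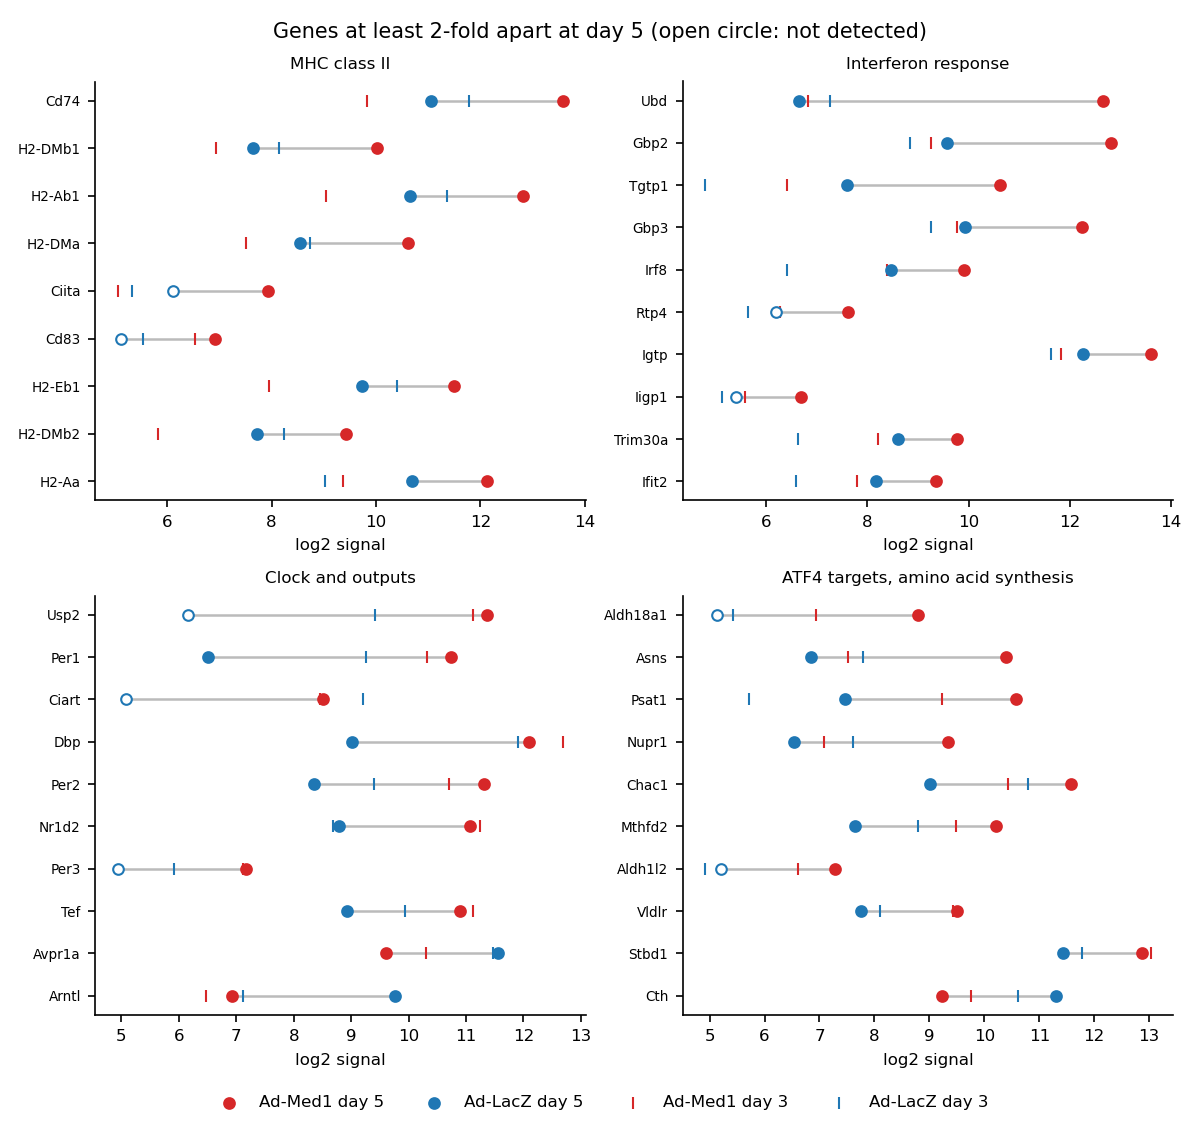
Log2 signal of the genes at least 2-fold apart at day 5 (up to 10 in each list), with filled circles for the day 5 arrays (red Ad-Med1, blue Ad-LacZ, open where not detected) and ticks for the day 3 arrays, detected or not. Cd74 stands at 13.59 in Ad-Med1 and 11.05 in Ad-LacZ, and in the clock list Dbp stands at 12.10 and 9.02 with both day 3 ticks near the Ad-Med1 value.

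Immediate early genes answer growth factors and stress within minutes to hours, and were listed together with receptors, ligands and factors of liver regeneration. Of 23 measured genes of this joint list, 9 were at least 2-fold higher and 1 lower, with a median of 0.70. Junb, an AP-1 subunit, read 10.16 in Ad-Med1 and 7.55 in Ad-LacZ (6.12-fold higher). Fos, its partner, read 8.39 and 6.78 (3.05-fold higher). Cebpb, a factor of the acute phase and of regeneration, read 13.88 in Ad-Med1 and 12.23 in Ad-LacZ (3.13-fold higher). The lower gene was Hgf, the hepatocyte growth factor of stellate cells, whose probe was detected in Ad-LacZ alone and was at least 2.61-fold lower, while a further Hgf probe differed by only -0.12. Against the day 3 control the median was 0.28.

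Cytokines and feedback genes of NF-kB were higher in 10 of 21 and lower in none, with a median of 0.97, and 5 of the 10 were not detected in Ad-LacZ. Tnfaip3, which encodes the NF-kB inhibitor A20, was at least 4.12-fold higher. Tlr2, a receptor for bacterial lipoproteins, read 9.71 in Ad-Med1 and 8.44 in Ad-LacZ (2.41-fold higher). Cd40, a costimulatory receptor, read 7.62 and 6.42 (2.29-fold higher), and Bcl3, a nuclear cofactor of NF-kB, read 8.72 and 7.60 (2.18-fold higher). In 18 of the 21 genes the Ad-Med1 day 5 array was the highest of the 4, against 23.5% of all genes. All 21 were detected in Ad-Med1 but only 14 in Ad-LacZ, so several entered the list through the array where they are high. That share was therefore in part fixed by the filter.

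Antigen presentation by MHC class II, by which macrophages, dendritic cells and B cells show peptides to helper T cells, was higher as a group. Of 12 measured genes 9 were at least 2-fold higher, none was lower, and all 12 differences were above 0 (median 1.79). Cd74, the invariant chain, read 13.59 in Ad-Med1 and 11.05 in Ad-LacZ (5.81-fold higher). The chains of the presenting molecules followed, H2-Ab1 with 12.82 in Ad-Med1 and 10.65 in Ad-LacZ (4.52-fold higher) and H2-Eb1 with 11.50 and 9.73 (3.42-fold higher). The chains that help load the peptide were H2-DMa with 10.62 in Ad-Med1 and 8.55 in Ad-LacZ, H2-DMb1 with 10.02 and 7.65, and H2-DMb2 with 9.43 and 7.73. Ciita, the transcription factor that switches these genes on, was detected in Ad-Med1 alone at 7.94 and was at least 2.89-fold higher (chosen after its value was seen).

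At day 3 the order was the opposite, with a median of -1.23. Cd74 read 9.82 in Ad-Med1 and 11.79 in Ad-LacZ, and H2-Ab1 9.04 and 11.36. The Ad-Med1 array was thus the lowest of the 4 at day 3 and the highest at day 5 for both genes. Ad-Med1 at day 5 against Ad-LacZ at day 3 gave a median of 1.63.

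Cells that carry MHC class II were examined beside it. In whole liver, more cells of a type and more RNA per cell cannot be told apart. The Kupffer cell list had 3 of 14 genes higher, Marco, C6 and C1qc, and none lower (median 0.61), against 10.2% and 7.68% of all genes. Its normalized intensities summed to 32653 in Ad-Med1 and 23949 in Ad-LacZ, and its median was -0.14 against the day 3 control. Of the dendritic cell list, 4 of 11 genes were measured, and Itgax, Flt3, Xcr1, Zbtb46, Cd209a, Ccr7 and Ccr9 were not detected on either array. Of the B cell list, 3 of 13 genes with a probe were measured, all 3 with differences below 0, while Ms4a1 and Pax5 were not detected. The monocyte list had 8 of 20 genes higher and 1, Cx3cr1, lower (median 0.59), with sums of 39195 in Ad-Med1 and 23284 in Ad-LacZ. The part of these cells in the MHC class II result was not tested.

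Interferon response genes were higher in 14 of 39 and lower in none, with a median of 0.69. Ubd, which encodes the ubiquitin-like FAT10, read 12.66 in Ad-Med1 and 6.64 in Ad-LacZ, and Tgtp1, an immunity-related GTPase, read 10.61 and 7.59 (8.13-fold higher). Gbp2 and Gbp3, guanylate-binding proteins, read 12.82 and 12.25 in Ad-Med1 against 9.57 and 9.93 in Ad-LacZ. Their further probes differed by 1.34 and 2.32 on the log2 scale. Irf8, a factor of the interferon gamma response in myeloid cells, read 9.91 in Ad-Med1 and 8.47 in Ad-LacZ (2.72-fold higher), and Igtp read 13.60 and 12.26 (2.54-fold higher). The MHC class I and immunoproteasome list had 5 of 22 genes higher and 1, H2-Q2, lower (median 0.61). The higher ones include Psmb8 and Psmb9, the induced proteasome subunits, with 12.73 and 12.41 in Ad-Med1 against 11.40 and 11.30 in Ad-LacZ.

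The interferon-stimulated response element, searched as a pair of GAAA repeats with any 2 bases between them on either strand, was found within 250 bases of the start in 14 of 30 interferon genes with an entry, 6 of them among the 11 higher ones, against 3.46% of all genes. The windows of Gbp2, chr3:142620413-142620662 (plus strand), and Tgtp1, chr11:48992247-48992496 (minus strand), in GRCm38.p6 from RefSeq, are given since both followed Ubd, in whose window no match was found. Capitals mark the match, which began 59 bases before the start in Gbp2, on the opposite strand, and 77 in Tgtp1.
Gbp2: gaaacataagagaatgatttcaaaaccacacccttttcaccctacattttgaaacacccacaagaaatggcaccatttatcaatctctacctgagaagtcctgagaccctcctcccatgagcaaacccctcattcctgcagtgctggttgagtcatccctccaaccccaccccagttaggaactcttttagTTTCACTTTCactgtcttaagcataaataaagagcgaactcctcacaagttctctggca
Tgtp1: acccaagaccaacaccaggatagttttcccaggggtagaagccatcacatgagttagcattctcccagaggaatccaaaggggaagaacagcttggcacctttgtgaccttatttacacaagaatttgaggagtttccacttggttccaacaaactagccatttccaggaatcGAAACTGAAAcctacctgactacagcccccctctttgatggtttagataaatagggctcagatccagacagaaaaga

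Chemokines and adhesion molecules, which draw leukocytes into tissue, were higher in 12 of 25 and lower in 3, with a median of 0.92, and 5 of the higher ones were not detected in Ad-LacZ. Vcam1, the ligand of integrin alpha 4 on lymphocytes and monocytes, read 11.46 in Ad-Med1 and 8.76 in Ad-LacZ (6.51-fold higher), and Icam1 was 3.26-fold higher. Cxcl10, a ligand of the T cell receptor Cxcr3, read 10.48 in Ad-Med1 and 8.11 in Ad-LacZ (5.16-fold higher), and Ccl4 read 9.65 and 7.61 (4.14-fold higher). The 3 lower genes, chosen after their values were seen, were Ccl19 and Ccl21a, the ligands of Ccr7, with 7.07 and 6.46 in Ad-Med1 against 8.19 and 7.54 in Ad-LacZ, and Selp, which was at least 1.67-fold lower. In the series values Ccl19 and Ccl21a turned to 0.14 and 0.07.

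Leukocyte markers moved with these genes. Of 25 T and NK cell markers with a probe, 11 were measured, of which 7 were higher and 1, the perforin gene Prf1, was lower (median 1.71). All 11 were detected in Ad-Med1 but only 5 in Ad-LacZ, and 4 of the 7 higher ones were not detected there, so most entered the list through the array where they are high. The normalized intensities of the markers summed to 5308 in Ad-Med1 and 2531 in Ad-LacZ. Cd3g, a chain of the T cell receptor complex, read 9.04 in Ad-Med1 and 6.86 in Ad-LacZ (4.53-fold higher), and Cd3e, detected in Ad-Med1 alone, was at least 4.72-fold higher. Cd4, Cd8a, Gzmb, Klrb1c and Ncr1 were among the 14 not detected on either array. Neutrophil genes were higher in 9 of 14 (median 1.48), 4 of which were not detected in Ad-LacZ. All 14 were detected in Ad-Med1 but only 6 in Ad-LacZ, so most entered this list in the same way. Their sums were 17083 in Ad-Med1 and 7838 in Ad-LacZ. These sums include Lcn2, which is also on the acute phase list and read 12.63 in Ad-Med1 and 10.93 in Ad-LacZ. They therefore do not stand for neutrophils alone. S100a9, a subunit of calprotectin, read 10.96 in Ad-Med1 and 8.46 in Ad-LacZ (5.67-fold higher). Their part in the chemokine, interferon and cytokine results was not tested.

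Markers of stellate and endothelial cells were examined next. Stellate cell and matrix genes were lower in 6 of 26 and higher in 3 (median -0.38), against 7.68% and 10.2% of all genes. Lrat, which stores retinol as its ester in stellate cells, was detected in Ad-LacZ alone and was at least 5.15-fold lower, and Rgs5, a pericyte marker, at least 10.2-fold. Des, the intermediate filament of stellate cells, read 6.14 in Ad-Med1 and 7.29 in Ad-LacZ (2.22-fold lower). Thy1, of activated fibroblasts and of T cells, read 9.34 and 7.05 (4.88-fold higher). Of 18 endothelial genes 2 were lower, Vwf and Oit3, and none was higher (median -0.53), a count of lower genes near the 7.68% of all genes, and Oit3 turned to 0.05 in the series values. Rgs5 and Lrat showed the same order at day 3, Rgs5 with 5.73 in Ad-Med1 and 10.24 in Ad-LacZ and Lrat with 6.02 and 8.63.

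Acute phase genes, secreted by hepatocytes under cytokine signals, were higher in 11 of 27 and lower in none, and 4 of the 11 were not detected in Ad-LacZ. The median was 0.63, which turned to -0.63 and -0.25 when the arrays were scaled to the median of the detected genes. The counts came from the serum amyloids and less abundant genes, while the most abundant proteins differed little. Saa3 read 13.95 in Ad-Med1 and 10.40 in Ad-LacZ (11.7-fold higher) and Saa1 14.19 and 10.93 (9.57-fold higher). A further Saa1 probe differed by 1.99 on the log2 scale, and Saa1 read 14.69 in Ad-LacZ at day 3. Hp, the haemoglobin scavenger haptoglobin, read 15.29 in Ad-Med1 and 15.08 in Ad-LacZ, and Orm1 14.27 and 14.50 (chosen after their values were seen). Of 48 further plasma proteins of hepatocytes, 5 were lower and none higher (median -0.25), against 7.68% and 10.2% of all genes.

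In fat metabolism, the lipogenic genes were divided, with 5 of 19 at least 2-fold higher, Fasn among them with a bound of 1.93-fold, and 1 lower (median 0.17). Lpin1, which makes diacylglycerol, read 11.57 in Ad-Med1 and 8.46 in Ad-LacZ (8.61-fold higher), and Thrsp, a regulator of fat synthesis, read 12.38 and 10.05 (5.04-fold higher). At day 3 these genes read 11.15 and 12.95 in Ad-Med1 against 11.62 and 12.85 in Ad-LacZ, so that the Ad-LacZ day 5 array was the one apart. Srebf1, the master regulator of fatty acid synthesis, read 10.33 in Ad-Med1 and 8.85 in Ad-LacZ (2.79-fold higher), whereas Acss2, which activates acetate and is also a target of SREBP2, read 11.27 and 13.03 (3.38-fold lower). The lipid droplet list had 4 of 19 genes higher and none lower (median 0.32), and Cidec, a droplet coat protein, was at least 5.13-fold higher.

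Glucose genes were higher in 6 of 25 and lower in 3 (median 0.21), against 10.2% and 7.68% of all genes. Foxo1, which drives gluconeogenesis in fasting, read 10.19 in Ad-Med1 and 8.53 in Ad-LacZ (3.17-fold higher), Gys2, the liver glycogen synthase, read 11.13 and 9.79 (2.53-fold higher), and G6pc, the last enzyme of glucose release, read 12.17 and 13.44 (2.41-fold lower). The list of NRF2 targets also holds the regulators Nfe2l2, Keap1 and Bach1. Of its 18 measured genes 5 were higher and 2 lower (median 0.21), against 10.2% and 7.68% of all genes. The 2 lower ones were the regulators Bach1 and Nfe2l2. Hmox1, which degrades haem, read 9.47 in Ad-Med1 and 7.17 in Ad-LacZ (4.92-fold higher), while Bach1, the repressor of Hmox1, read 7.05 and 9.51 (5.52-fold lower). Nfe2l2, which encodes NRF2, read 8.20 and 9.49 (2.46-fold lower). Gsta1 and Gsta2, near-identical glutathione transferases whose probes may not be told apart, read 12.99 and 13.19 in Ad-Med1 against 10.22 and 10.49 in Ad-LacZ.

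The remaining lists include Mediator itself and genes tied to known partners of Med1. Among 28 measured Mediator subunits, 1 was at least 2-fold higher and none lower (median -0.08). It was Med14, not detected in Ad-LacZ, with a bound of 1.01-fold (chosen after its value was seen). Med1 entered this count by its brightest probe, ILMN_1220563 (9.45 in Ad-Med1 and 9.25 in Ad-LacZ). Probes ILMN_2658227 and ILMN_3106388, at which Med1 was higher, were not counted. Of 18 genes of peroxisomal and 23 of mitochondrial fatty acid oxidation, which PPARalpha controls, 1 each was lower and none was higher, with medians of -0.01 and 0.04. Hacl1, of the peroxisomal breakdown of branched fatty acids, read 10.34 in Ad-Med1 and 11.88 in Ad-LacZ (2.90-fold lower), and Cyp4a31, an omega-hydroxylase gene, read 10.14 and 12.28 (4.43-fold lower). Of 23 nuclear receptors and coregulators 5 were lower and 1, Vdr, was higher (median -0.18), Vdr with a dim side that was not detected. Crebbp, the coactivator CBP, was detected in Ad-LacZ alone at 8.20 and was at least 4.34-fold lower, with a second probe at -2.76. Among 59 subunits of the respiratory chain and 27 of the proteasome none was 2-fold apart, with medians of -0.02 and 0.07.

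The day 5 differences overlapped with those of day 3 in part. The 2 pairs share no array. At day 3, 2661 of 9052 genes (29.4%) were 2-fold apart, 1576 (17.4%) higher in Ad-Med1 and 1085 lower. Of 8747 genes measured on both days, 788 were higher at day 5 and 1478 at day 3, and 302 were higher on both, which is 38.3% of the first and 20.4% of the second. The lower genes numbered 639 at day 5 and 989 at day 3, with 299 on both (46.8% and 30.2%). In 56 genes higher and 60 genes lower at day 5, the day 3 difference passed 2-fold in the opposite direction.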

How the data were processed

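Liver RNA of 4 groups was measured on Illumina bead arrays, with 1 array each. Per the file headers, the authors deposited a non-normalized table that holds a probe intensity on a linear scale and, beside it, a detection p-value for each of 45281 probes. Neither the scanner software nor the bead summary is named there. The authors' series values equal these deposited intensities, with a largest difference of 0, so their scale and direction are known.

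All 4 arrays went through neqc (limma 3.58.1, R 4.3.3). It estimates background from the detection column, corrects by normexp (offset 16) and then quantile normalizes on the log2 scale. Counting and plotting used Python 3.11.15 with numpy 2.4.6, pandas 2.3.3 and matplotlib 3.10.9, and the counting was tested on simulated data. Gene symbols came from the platform annotation and were brought up to date with a RefSeq table of GRCm38.p6, which held 34807 of the gene identifiers. A single symbol was found for 34885 probes, several for 18 and none for 10378. Each gene is represented by 1 probe, the brightest by its mean over the 4 arrays. A difference is Ad-Med1 minus Ad-LacZ on the log2 scale, and a gene counted as higher or lower at 2-fold or more with a detection p-value under 0.01 on at least 1 day 5 array. Where the dim side was not detected, the fold is at least the one against the array's lowest detected signal, or the probe's own if higher.

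With 1 array per group no test was possible, and that number limits the precision. Nothing in the labels says whether an array came from 1 animal or a pool. The named genes are every Med1 probe, in each direction the 10 genes with the largest difference among those detected on both arrays and the 5 with the largest bound, in each pathway and marker list up to 6 with the largest difference among those at least 2-fold apart (or the largest where none is), and the sex-linked transcripts. Members, lists and motifs were chosen with earlier results of these data known. Alternatives changed the background correction, normalization, source of values, offset, detection filter, probe choice and control array.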

Additional observations from a re-analysis of the deposited data

Results flagged for a closer look

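In 3 gene lists with at least 5 measured genes on each day, the median difference was at least 1.5-fold on both days and in opposite directions. Other lists also had medians of opposite sign, but with fewer genes, or under 1.5-fold on at least 1 day. The difference between the days was not tested, since each day has 1 array per virus. The replication-dependent histones had a median of -1.34 at day 5 and 1.48 at day 3. The MHC class II list had a median of 1.79 at day 5 and -1.23 at day 3. The Kupffer cell list had a median of 0.61 at day 5 and -1.84 at day 3.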

How the results depend on the processing

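The 943 higher and 711 lower genes stayed within 1.5 times with the day 5 arrays normalized alone, an offset of 50, a detection p-value under 0.05, no detection filter, the lowest detected signal in place of undetected ones, and the mean of a gene's probes. Without background correction they were 363 and 357. Scaling to the median of all probes gave 4165 and 218, and the series values less their median gave 3646 and 61. These shifted the median of all genes to 0.91 and 0.84, so directions there are read against that shift. Scaling to the median of the detected genes, added after seeing the data, gave 785 and 1128, and the series values centred likewise gave 539 and 549. Genes detected on both arrays numbered 539 and 540, since fewer genes enter. Against the day 3 Ad-LacZ array there were 1668 and 1082.

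Among lists with a median of at least 1.5-fold, medians turned as follows, and the cause was not tested. Against the day 3 control the histones stood at 0.04 and the Kupffer list at -0.14. In the series values bile acid genes stood at 0.05. With the 2 scalings added later, acute phase genes stood at -0.63 and -0.25, and the dendritic list at -0.13 in the second and at -0.31 without a detection filter. Over all settings, 549 of 650 list medians stayed within 1.5-fold, 94 moved further and 7 turned. A smaller median that changed sign was not counted as turned, but as staying or moving. No direction is read from lists with medians near 0.

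For 170 genes named in the text, 29 of 2181 differences turned and 507 moved by more than 1.5-fold. A turn was counted only for genes at least 2-fold apart in the main setting. The day 3 Ad-LacZ array gave Eif2s3y signal and no Xist signal, the reverse of that of day 5. The part of this in the turns below was not tested. Against the day 3 control, the turned differences above 0 were A1bg 2.68, Alb 0.46, Bhmt 2.47, Cx3cr1 0.12, Cyp2b13 5.72, Cyp2c39 1.63, H4c12 0.94, Plk1 0.99 and Sult2a2 5.26. Those below 0 were C6 -0.28, Cyp4a12b -1.61, Cyp7b1 -0.13, Lpin1 -0.05, Med14 -0.45, Saa1 -0.50, Thrsp -0.47, Uty -0.47 and Vdr -0.46. In the series values, Ccl19 stood at 0.14, Ccl21a at 0.07, and Nfe2l2, Nr1d1, Oit3, Plk1 and Prf1 at 0.05. Centred on the detected genes, these values gave -0.13 for Med14 and -0.14 for Vdr. Vdr stood at -0.10 with undetected signals raised, and Xist at -2.02 over the mean of its probes.

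No paired analysis was possible because each group has 1 array. That number limits the precision, and dim probes rest on the background estimate.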

Other observations

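Genes of late cell division were mostly under 2-fold apart on the day 5 arrays. Of 17 measured G2 and mitosis genes, 2 were at least 2-fold higher in Ad-Med1 and 1 lower, with a median of 0.33. These counts are near the 10.2% and 7.68% of all genes. Top2a, the topoisomerase that untangles replicated DNA, read 9.50 in Ad-Med1 and 8.14 in Ad-LacZ, though a further Top2a probe differed by -0.31. Plk1, a mitotic kinase, read 8.54 and 9.80. In 16 of the 17 the highest of the 4 arrays was Ad-Med1 at day 3, against 23.7% of all genes. Fetal liver and tumour markers were higher in 5 of 14 and lower in 1 (median 0.68). Among them, Igf2, the fetal growth factor, read 8.78 in Ad-Med1 and 6.63 in Ad-LacZ, and Ly6d, a surface antigen, read 9.58 and 6.48. Genes of p53 and arrest were higher in 3 of 14 and lower in 2 (median 0.35), against 10.2% and 7.68% of all genes. Gadd45a, a gene of the DNA damage response, read 9.63 in Ad-Med1 and 8.07 in Ad-LacZ.

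Conjugating enzymes were higher in 4 of 36 and lower in 4 (median -0.07), against 10.2% and 7.68% of all genes. The lower ones include the sulfotransferase genes Sult2a2, with 10.12 in Ad-Med1 and 12.13 in Ad-LacZ, and Sult5a1, with 7.18 and 8.79. Of 9 measured erythroid genes 1 was higher and 1 lower, and the higher one, Tfrc, the transferrin receptor, was 3.14-fold higher. Of the genes of other abdominal tissue, Cela1, an elastase, read 9.37 in Ad-Med1 and 11.37 in Ad-LacZ, while the pancreatic enzyme genes Prss2, Cpa1 and Ctrb1 were not detected on either day 5 array.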
